A study of Mus musculus with 8 samples.

Results

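The paired isoforms of cytochrome c oxidase are 10 mouse genes that form 5 couples, each with a ubiquitous member and a tissue member for the same subunit. They were chosen by gene symbol from a table of 27534 genes, with earlier results of the same glucose comparison known, so their differences between glucose concentrations are given as a description, with no p-value. Where a member is said to be called, that records its side of the threshold in the fit over all genes and is not evidence, since the choice of members used this contrast. The ubiquitous members are Cox4i1, Cox6a1, Cox6b1, Cox7a2 and Cox8a, and their tissue counterparts are Cox4i2, Cox6a2, Cox6b2, Cox7a1 and Cox8b.

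Cytochrome c oxidase, or complex IV, is the terminal enzyme of the mitochondrial respiratory chain and passes electrons from cytochrome c to oxygen while pumping protons. Its catalytic core is encoded by mitochondrial DNA, and nuclear genes supply the surrounding subunits. For some of these, one isoform is made in most cells and a sister isoform in particular tissues. Cox6a2, Cox7a1 and Cox8b are known from heart and skeletal muscle, Cox4i2 from lung and Cox6b2 from testis.

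The data are read counts from bulk RNA sequencing of pancreatic islets, the hormone-secreting clusters of the pancreas, taken from C57BL/6J mice. Islets were kept for 72 h in RPMI medium with 20 mM glucose (high glucose, 4 libraries) or 7.5 mM glucose (low glucose, 4 libraries), and the series concerns IRE1α, a sensor of the endoplasmic reticulum, and the size of the Golgi in early β-cell compensation. The labels give no genetic change in either group, and no age, sex or pooling of the mice. They number the libraries 1 to 4 in both groups and do not say whether these came from separate animals, so p-values measure only the spread between these libraries.

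The total count per library was 20516328 to 24905499 in high glucose, against 19543045 to 24949515 in low glucose. The label of islet tissue was met by its markers: Ins2, which encodes insulin, had 135932 to 190032 CPM, the count scaled to a common library size, in high glucose and 131131 to 201696 CPM in low glucose. On the second principal component of all tested genes the libraries numbered 2 had the highest score in each group, 24.3 in high glucose and 46.6 in low glucose. In bulk tissue, fewer cells of a type and less RNA per cell cannot be told apart.

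The coding sequences of the Cox6a couple are shown because the main difference concerns these paralogs, and the likeness between them bears on whether their reads can be mixed up. Cox6a2 lies on chromosome 7 and Cox6a1 on chromosome 5, both on the minus strand of GRCm38. Each sequence is that of the GENCODE M21 transcript, 5′ to 3′, and the capitals mark the longest stretch of identical bases between both transcripts.
Cox6a2: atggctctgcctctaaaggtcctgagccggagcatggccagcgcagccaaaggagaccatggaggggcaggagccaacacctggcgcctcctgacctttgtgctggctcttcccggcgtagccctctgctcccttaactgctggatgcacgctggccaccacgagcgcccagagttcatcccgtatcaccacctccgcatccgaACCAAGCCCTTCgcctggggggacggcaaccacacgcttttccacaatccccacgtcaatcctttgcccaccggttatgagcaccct
Cox6a1: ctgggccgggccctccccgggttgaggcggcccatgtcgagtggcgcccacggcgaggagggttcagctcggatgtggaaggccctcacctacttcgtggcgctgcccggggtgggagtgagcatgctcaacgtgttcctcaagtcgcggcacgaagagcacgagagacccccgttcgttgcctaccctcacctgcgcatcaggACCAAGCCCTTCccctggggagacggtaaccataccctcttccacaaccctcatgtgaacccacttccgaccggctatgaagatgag
The coding sequence of Cox6a2 has 291 bases and is shown whole, and that of Cox6a1 has 336 and is shown from base 46 to its end. In a global alignment, 178 of 285 aligned bases were identical (62.5%), and the longest identical stretch was 12 bases, at positions 205 to 216 of Cox6a2 and 250 to 261 of Cox6a1. The other couples were similarly divergent, with 69.0% identical aligned coding bases for Cox4i, 59.7% for Cox6b, 61.4% for Cox7a and 56.9% for Cox8. No couple shared an identical stretch longer than 14 bases between its transcripts.

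Cox6a2, the heart and muscle isoform of subunit VIa, averaged 10.5-fold more in high than in low glucose. Its level per length in high glucose, 80.2 to 141 FPKM over the libraries, overlapped the ranges of the ubiquitous Cox6b1, Cox4i1 and Cox7a2. The other 4 tissue isoforms were low in both groups, and the 5 ubiquitous isoforms, which supply these subunits in most cells, overlapped between the groups. Of the 10 members, 7 passed the filter on low counts and entered the edgeR fit. Of these, 1 was called higher (Cox6a2) and 0 lower, where 13.1% of all 15442 genes tested were called higher and 11.9% lower, or 25.0% in either direction. Nothing is read from this count. With the replicate number as a block, 2 members, Cox6a1 and Cox6a2, were called higher, where 18.9% of all genes were. CPM of the groups did not overlap for 1 of the 7 (Cox6a2, higher), against 13.7% of all tested genes for that direction.

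**Figure D1:**
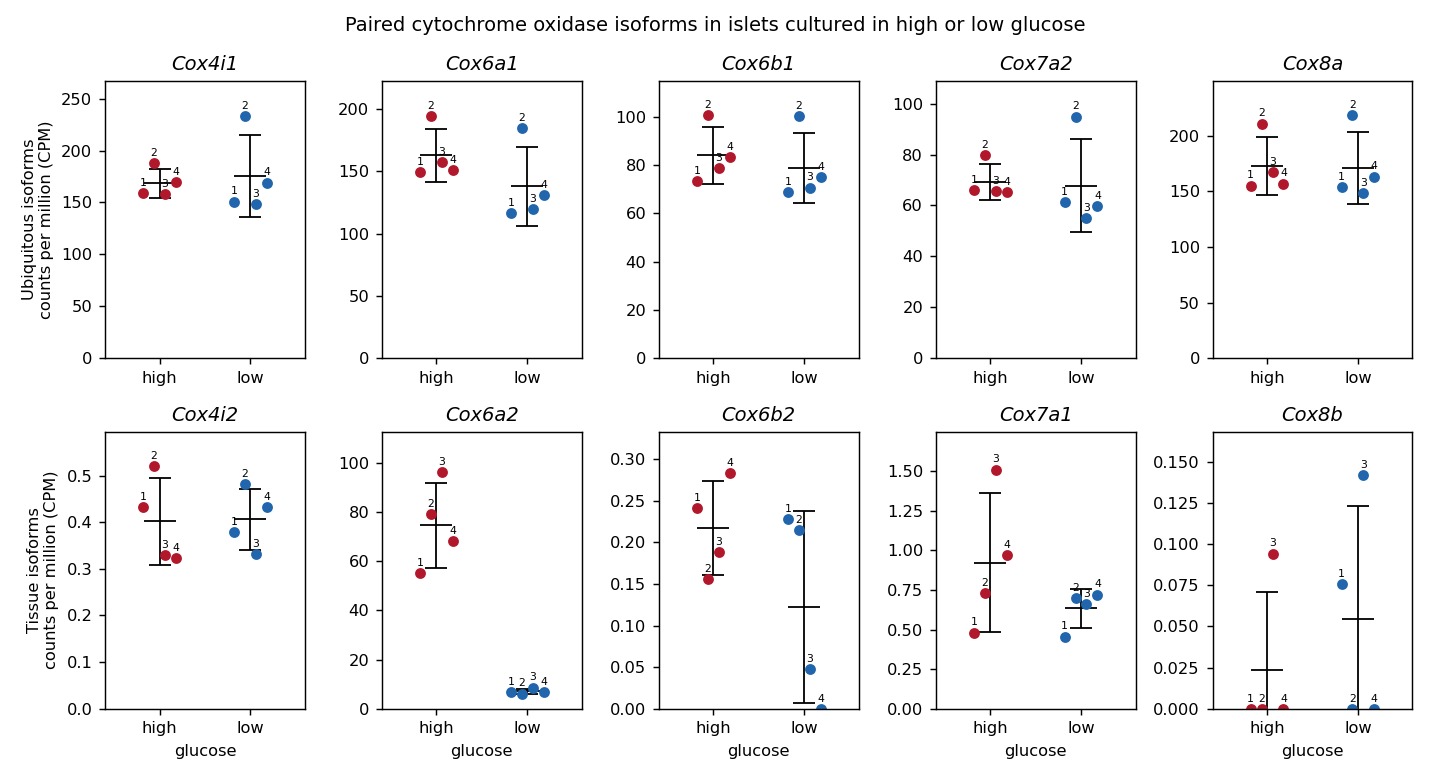
CPM of the 10 isoforms, with ubiquitous isoforms in the top row and tissue isoforms in the bottom row, each on its own linear axis. Points are libraries labelled by replicate number, black bars are the mean ± SD (n = 4), and high glucose is on the left. The groups are apart only for Cox6a2, at 55.3 to 96.1 CPM in high glucose and 6.16 to 8.62 CPM in low glucose.

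Levels of different genes were compared by the deposited FPKM, which divides by gene length. In high glucose the order of mean FPKM was Cox8a (313 ± 46.2), Cox6a1 (230 ± 29.0), Cox6b1 (117 ± 16.1), Cox6a2 (109 ± 25.8), Cox4i1 (108 ± 8.41) and Cox7a2 (72.5 ± 7.09), each as mean ± SD over 4 libraries. The remaining tissue isoforms followed far below, with Cox7a1 at 1.71 ± 0.826 FPKM, Cox4i2 at 0.504 ± 0.114, Cox6b2 at 0.194 ± 0.0501 and Cox8b at 0.0654 ± 0.131. Among neighbours in this order, the libraries of Cox6b1 and Cox6a2 overlapped, as did those of Cox6a2 and Cox4i1 and those of Cox6b2 and Cox8b. In low glucose the order was Cox8a (306 ± 57.2 FPKM), Cox6a1 (192 ± 43.6), Cox4i1 (110 ± 24.8), Cox6b1 (108 ± 19.9), Cox7a2 (70.0 ± 18.7) and then Cox6a2 (10.2 ± 1.52). Below Cox6a2 stood Cox7a1 at 1.16 ± 0.226 FPKM, Cox4i2 at 0.503 ± 0.0814, Cox8b at 0.147 ± 0.185 and Cox6b2 at 0.107 ± 0.101. Cox4i1 and Cox6b1 overlapped in low glucose, as did Cox6b1 and Cox7a2, and Cox8b and Cox6b2. Cox6a2 was thus the fourth member by FPKM in high glucose and the sixth in low glucose, and in low glucose it still exceeded every other tissue isoform in every library.

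Cox6a2 had 55.3, 79.2, 96.1 and 68.1 CPM in high glucose libraries 1 to 4, and 6.94, 6.16, 8.62 and 6.63 CPM in low glucose libraries 1 to 4. All 4 high glucose libraries lay above all 4 low glucose libraries, and library 3 was the highest of each group. These values rest on 1149 to 2039 counts per high glucose library and 115 to 183 per low glucose library. The mean was 74.7 ± 17.3 CPM in high glucose and 7.08 ± 1.07 CPM in low glucose (SD, n = 4 each). This was a 10.5-fold difference, with a log2 fold change of 3.40 and an SE of 0.18. Between libraries of the same number the log2 ratio was 2.99, 3.68, 3.48 and 3.36 for numbers 1 to 4. The authors' deposited table gives a log2 fold change of 3.40. Counting Cox6a2 itself, 17 of all tested genes had a log2 fold change at or above that of Cox6a2. Of the 10864 genes with at least 5 CPM in high glucose, 10 did, again with Cox6a2 included.

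Cox6a1, the isoform of subunit VIa found in most cells, had 149, 194, 157 and 151 CPM in high glucose and 117, 185, 120 and 131 CPM in low glucose. The groups overlapped, since low glucose library 2 lay above 3 of the high glucose libraries, but each high glucose library exceeded the low glucose library of its number. The log2 fold change was 0.24 ± 0.15 (SE), and the within-number log2 ratios were 0.36, 0.07, 0.39 and 0.20. All 4 within-number ratios were also positive for Cox6a2, Cox6b1 and Cox7a1. Cox6a1 was not called without the block and was called higher with it. It was also called without low glucose library 2, where its log2 fold change was 0.41.

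The level per length of the couple together was 290, 387, 365 and 312 FPKM in high glucose and 171, 264, 179 and 194 FPKM in low glucose, so that the lowest high glucose library lay above the highest low glucose library. The share of Cox6a2 in this sum, from CPM per kilobase, was 27.6%, 29.6%, 38.7% and 31.8% in high glucose and 5.78%, 3.33%, 6.90% and 4.96% in low glucose. The mean share was 31.9% ± 4.80 in high glucose and 5.24% ± 1.5 in low glucose (SD, n = 4 each), a difference of 26.7 percentage points. Cox6a1 remained the more abundant isoform per length in every library.

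**Figure D2:**
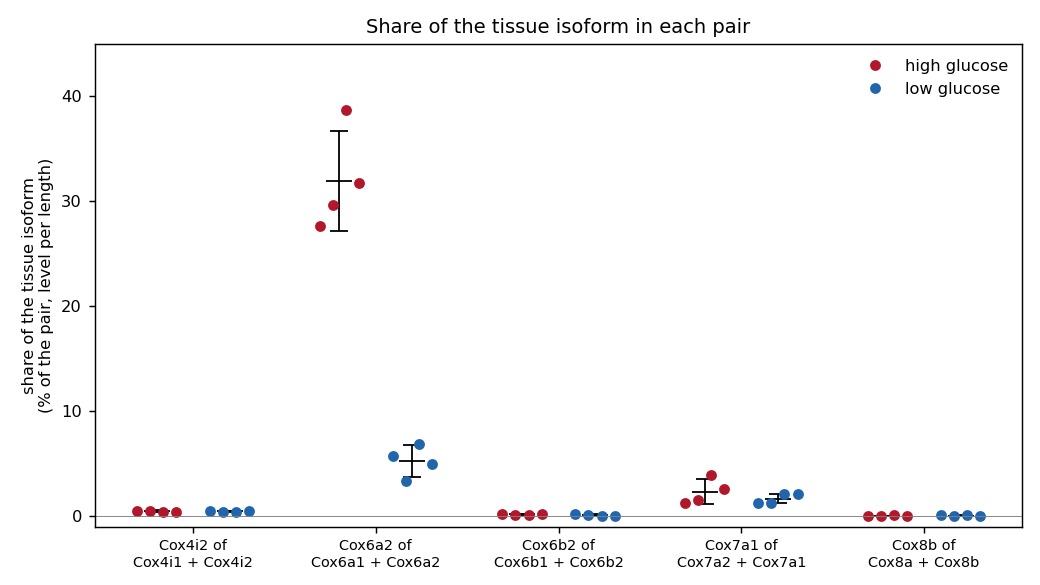
Share of the tissue isoform in the summed level per length of its couple, in percent, for the 5 couples. Points are libraries, black bars the mean ± SD (n = 4), and high glucose is left of low glucose. Only the Cox6a couple separates, where high glucose libraries lie at 27.6% to 38.7% and low glucose libraries at 3.33% to 6.90%.

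Cox6a2 spans chr7:128205435-128206387 on the minus strand, inside Itgad (chr7:128154376-128223816, plus strand), which encodes an integrin alpha subunit of leukocytes. Of its 680 exonic bases, 70 (10.3%) also belong to exons of Itgad. The kit named in the labels and the sources used here do not give the strand setting of the counting, so reads in those bases cannot be told apart between these genes. Itgad itself had fewer counts than Cox6a2 in every library. Cox6a2 held 5.95, 6.22, 7.52 and 5.67 times the counts of Itgad in high glucose libraries 1 to 4 and 18.3, 115, 8.67 and 27.6 times in low glucose libraries 1 to 4.

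The genes within 100 kb of Cox6a2 were chosen for description after values at this locus had been seen, and no test is given for them. Together with Cox6a2 they are 11 genes, of which 4 lie within the Itgad span, and these 4 were at least 10.5-fold higher in high glucose. Itgad had 9.29, 12.7, 12.8 and 12.0 CPM in high glucose and 0.379, 0.0536, 0.994 and 0.240 CPM in low glucose, a 27.3-fold difference. The gene 4931431B13Rik, which shares 388 exonic bases with Itgad, had 11.2 ± 2.77 CPM in high glucose and 0.419 ± 0.341 CPM in low glucose (SD, n = 4 each). It lies on the strand opposite to Itgad, so without the strand setting reads in those bases cannot be told apart between these genes either. Counts summed to 1006 for Itgad and 956 for 4931431B13Rik in high glucose, and to 37 for each in low glucose. Their differences are thus not separate measurements with certainty. Gm44850, on the same strand as Cox6a2 and with no exonic base in common with Cox6a2 or Itgad, had 35.8, 52.9, 68.1 and 49.0 CPM in high glucose and 2.84, 2.14, 3.50 and 2.64 CPM in low glucose. Its order of libraries in high glucose was that of Cox6a2, and the difference was 18.4-fold. In low glucose, Itgad and 4931431B13Rik were near the level of 3 counts, which corresponds to 0.114 to 0.161 CPM, in libraries 2 and 4. Their folds rest on few reads there.

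Genes just outside the Itgad span had much smaller differences. Itgax, a neighbouring integrin gene of macrophages and dendritic cells, had 6.46 ± 1.29 CPM in high glucose and 6.69 ± 1.01 CPM in low glucose, which on the log2 scale was a difference of -0.05 ± 0.18 (SE). Itgam, another leukocyte integrin gene, had 0.877 ± 0.252 CPM in high glucose and 0.631 ± 0.405 CPM in low glucose. On the other side, Armc5 had 59.4 ± 3.34 CPM in high glucose and 60.9 ± 3.28 CPM in low glucose, and 9130023H24Rik had 20.9 ± 2.87 CPM in high glucose and 17.1 ± 0.982 CPM in low glucose. BC017158, the farthest on that side, had 32.7 ± 4.37 CPM in high glucose and 23.3 ± 2.93 CPM in low glucose, and Tgfb1i1 had 3.35 ± 1.34 CPM in high glucose and 2.67 ± 0.494 CPM in low glucose. Slc5a2 was at 0.260 to 0.485 CPM in high glucose and 0.161 to 0.805 CPM in low glucose.

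**Figure D3:**
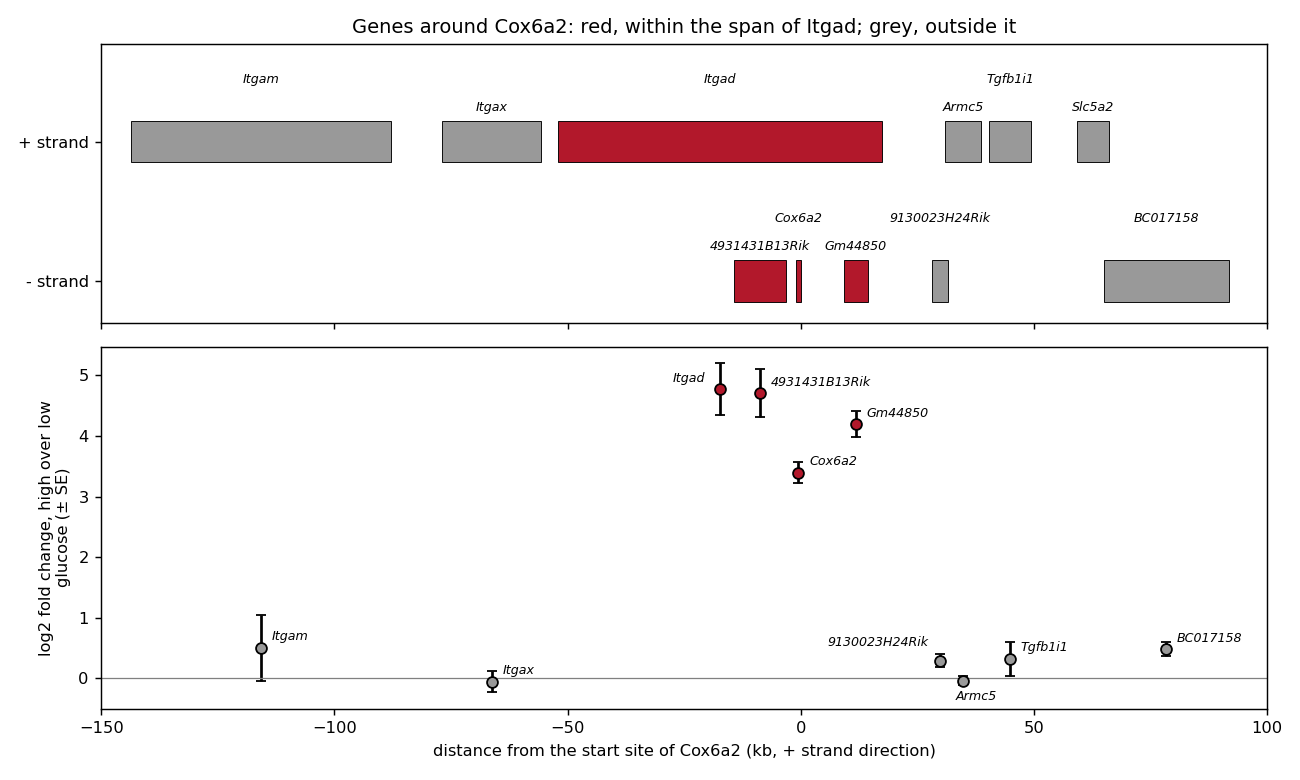
The upper panel maps the genes around Cox6a2 by strand, with distance from its start site in kb. The lower panel gives their log2 fold change, high over low glucose, ± SE at the middle of each gene, in red for genes within the span of Itgad and grey for those outside, where Slc5a2 has no fitted value. Itgad, 4931431B13Rik, Cox6a2 and Gm44850 lie between 3.40 and 4.77, and the genes outside the Itgad span between -0.05 and 0.51.

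Markers of cell types known for Cox6a2 or Itgad were read beside these values. The 18 muscle markers, of which 14 were measured, summed to 13.1 to 16.6 CPM in high glucose and 19.0 to 23.5 CPM in low glucose, mostly from Eno3 and Acta1. Eno3, a muscle enolase, fell (log2 fold change -0.78, edgeR adjusted p = 0.0047), and without it the other 13 summed to 5.20 to 7.72 CPM in high glucose and 4.21 to 6.58 CPM in low glucose. Actn3, of fast muscle fibres, had 1.29 ± 0.337 CPM in high glucose and 0.527 ± 0.373 CPM in low glucose and was not called. Ckm, the creatine kinase of muscle, had 0.0404 to 0.0962 CPM in high glucose and 0.0947 to 0.227 CPM in low glucose, and Mb, which encodes myoglobin, had at most 0.0962 CPM in high glucose, in 3 of 4 libraries, and was at 0 in all 4 low glucose libraries. The part of muscle markers in the result was not tested. The 12 macrophage markers, led by Lyz2 and C1qa, summed to 236 to 352 CPM in high glucose and 271 to 428 CPM in low glucose, and 0 of them were called. The 8 brown fat markers, of which 7 were measured and Cebpa and Pparg were the most abundant, summed to 22.8 to 29.8 CPM in high glucose and 26.1 to 30.6 CPM in low glucose. Ucp1, the uncoupling protein of brown fat, was at 0 in 3 of the 8 libraries and had at most 0.0962 CPM in high glucose and 0.268 CPM in low glucose.

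The genes whose profile over the 8 libraries was most like that of Cox6a2 were Pdyn, Tent5a, Abca4, Dapl1 and Zdhhc22. Likeness was the root mean square difference of log2 CPM after subtracting the low glucose mean, and these 5 were at 0.22, 0.24, 0.30, 0.39 and 0.40. It was taken over 10863 other genes with a mean of at least 5 CPM in high glucose. The measure thus includes the size of the difference between the groups, and the list is a description. Pdyn is the gene of prodynorphin, from which opioid peptides are cut, and had 829 ± 151 CPM in high glucose and 82.2 ± 17.5 CPM in low glucose (SD, n = 4 each). Tent5a, which encodes a poly(A) polymerase, had 305 ± 13.4 CPM in high glucose and 34.6 ± 4.32 CPM in low glucose. Abca4, known for a retinal lipid transporter, had 7.08 ± 1.38 CPM in high glucose and 0.762 ± 0.0799 CPM in low glucose. Gm44850 stood at rank 9 of this likeness, at 0.56.

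The Cox4i couple encodes subunit IV, the largest of the nuclear subunits, and Cox4i2 is known as its lung isoform. Cox4i1 had 159, 188, 158 and 170 CPM in high glucose and 151, 233, 148 and 169 CPM in low glucose. The values overlapped throughout, library 2 was highest in each group, and the log2 fold change was -0.06 ± 0.14 (SE). Cox4i1 shares 154 of its 1550 exonic bases (9.94%) with Emc8 on the opposite strand, a subunit gene of the endoplasmic reticulum membrane protein complex, which had 28.9 ± 1.47 CPM in high glucose and 29.1 ± 2.60 CPM in low glucose. Cox4i2 had 9, 10, 7 and 8 counts in high glucose and 10, 9, 7 and 9 counts in low glucose, which was too few to be tested. Its share of the couple was 0.464% ± 0.0853 in high glucose and 0.459% ± 0.0458 in low glucose (SD, n = 4 each). The 12 markers of pericytes and smooth muscle, led by Rgs5 and Pdgfrb, summed to 78.2 to 122 CPM in high glucose and 65.0 to 94.9 CPM in low glucose. Of the 9 tested, 1 was called higher, where 13.1% of all genes were, and the other 8 were not called. This was Abcc9, with no overlap (4.57 ± 0.499 CPM in high glucose and 2.27 ± 0.245 CPM in low glucose, edgeR adjusted p = 0.0016). Notch3, not called, did not overlap either, at 11.5 to 15.9 CPM in high glucose and 10.2 to 11.2 CPM in low glucose. Among all tested genes, 13.7% had no overlap in that direction.

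The Cox6b couple encodes subunit VIb, which faces the intermembrane space, and Cox6b2 is the isoform of testis. Cox6b1 had 73.3, 101, 78.8 and 83.4 CPM in high glucose and 69.0, 100, 70.7 and 74.9 CPM in low glucose. Values overlapped between the groups, and the log2 fold change was 0.09 ± 0.13 (SE). Cox6b2 had 5, 3, 4 and 7 counts in high glucose and 6, 4, 1 and 0 counts in low glucose, 19 counts in all against 11, and was not tested. Of 8 germ cell markers of testis, 3 were measured, with Odf1 and Ldhc the most abundant, and they summed to at most 0.156 CPM in high glucose and 0.161 CPM in low glucose.

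The Cox7a couple encodes subunit VIIa, of which Cox7a1 is the heart and muscle form. Cox7a2 had 66.0, 79.8, 65.6 and 65.3 CPM in high glucose and 61.3, 95.0, 55.1 and 59.7 CPM in low glucose. Library 2 stood above the rest of its group in both, and the log2 fold change was 0.03 ± 0.16 (SE). Without both libraries numbered 2, a setting added after the data had been seen, Cox7a2 was called higher along with Cox6a1 and Cox6a2. In that setting 2563 of all genes were called higher, against 2023 in the main fit. Cox7a1 had 10, 14, 32 and 24 counts in high glucose and 12, 13, 14 and 15 counts in low glucose, with high glucose libraries 3 and 4 above and library 1 below all low glucose libraries in count. On the CPM scale that was 0.481, 0.728, 1.51 and 0.970 in high glucose and 0.455, 0.696, 0.663 and 0.720 in low glucose. Scaled so, high glucose library 1 lay within the low glucose range and libraries 2, 3 and 4 above it, library 2 only just. The log2 fold change of 0.55 ± 0.38 (SE) was not called and was 0.21 without high glucose library 3. Cox7a1 made up 2.33% ± 1.18 of its couple in high glucose and 1.68% ± 0.460 in low glucose (SD, n = 4 each).

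The Cox8 couple encodes subunit VIII, the smallest, and Cox8b is the form of heart and muscle in mice. Cox8a had 155, 211, 167 and 157 CPM in high glucose and 154, 219, 149 and 163 CPM in low glucose, which overlapped throughout, with a log2 fold change of 0.01 ± 0.14 (SE). Cox8b had 0, 0, 2 and 0 counts in high glucose and 2, 0, 3 and 0 counts in low glucose. All 8 libraries were thus at or under 3 counts, which corresponds to 0.121 to 0.156 CPM in high glucose and 0.114 to 0.161 CPM in low glucose, and no fold is given. That floor covers counting error only.

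The 5 ubiquitous isoforms varied together from library to library. For the 10 pairs among them, deviations of log2 CPM from the group mean had a Pearson's r of 0.910 to 0.982 over the 8 libraries, which share their depth and composition, so this is a description. All 5 were highest in library 2 of high glucose and in library 2 of low glucose. Cox6a2 had an r of -0.322 to -0.0684 with them and was highest in library 3 of each group. With Cox7a1, which had 10 to 32 counts per library, the r of Cox6a2 was 0.669. The coefficient of variation within a group was 8.29% to 27.1% for the ubiquitous isoforms, and for Cox6a2 it was 23.2% in high glucose and 15.1% in low glucose.

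Promoters were read from RefSeq (GRCm38.p6), 250 bases before to 50 after the start, for the 7 members matched by symbol: Cox6a1, Cox6b1, Cox7a2, Cox8a, Cox6b2, Cox7a1 and Cox8b. That of Cox6a1 (chr5:115348909-115349208, minus strand) is shown for its matches to a core of nuclear respiratory factor 1 (NRF1), a regulator of respiratory chain genes, which are in capitals.
Cox6a1 promoter: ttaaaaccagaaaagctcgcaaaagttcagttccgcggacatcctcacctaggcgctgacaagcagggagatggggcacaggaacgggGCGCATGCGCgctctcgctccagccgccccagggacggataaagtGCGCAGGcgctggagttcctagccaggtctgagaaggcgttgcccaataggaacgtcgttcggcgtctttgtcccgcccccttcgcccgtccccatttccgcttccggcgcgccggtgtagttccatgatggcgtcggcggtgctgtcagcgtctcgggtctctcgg
Motifs were searched on both strands as GCGCANG, within the NRF1 site, and as CCGGAAG, the core of ETS factors, to which nuclear respiratory factor 2 belongs. GCGCANG was found in Cox6a1 alone of the 7, with 3 matches of which a pair on opposite strands overlap, and in 16.6% of 32851 promoters of this length. CCGGAAG was found in Cox6a1, Cox6b1 and Cox8a and in 8.86% of all promoters. Matches of the different motifs did not overlap each other. The promoters of the tissue isoforms Cox6b2, Cox7a1 and Cox8b held 2 to 10 CpG dinucleotides. Those of the ubiquitous isoforms Cox6a1, Cox6b1, Cox7a2 and Cox8a held 17 to 32, with a median of 7 over all promoters. No promoter of Cox6a2, Cox4i1 or Cox4i2 was matched by symbol, so these values do not cover them.

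Of 41 other listed subunit and assembly genes, 37 were tested with edgeR, with p-values adjusted by the Benjamini-Hochberg method over all 15442 genes, and 4 rose (10.8%) and 3 fell (8.11%) in high glucose, beside 13.1% and 11.9% of all genes. With the replicate block 8 rose, where 18.9% of all genes did. The median log2 fold change was 0.22 for the 8 tested nuclear subunits and 0.04 for the 26 tested assembly genes, against -0.01 for all tested genes. The mitochondrially encoded core subunits mt-Co1, mt-Co2 and mt-Co3 had log2 fold changes of 0.15, -0.09 and -0.30 and were not called by edgeR (adjusted p = 0.503, 0.790 and 0.324). Their levels were far apart. For mt-Co1 they were 4870 to 6482 CPM in high glucose and 4069 to 6357 CPM in low glucose. For mt-Co2 they were 17.2 to 24.5 CPM and 14.9 to 31.2 CPM, and for mt-Co3 17.3 to 24.7 CPM and 18.1 to 36.5 CPM, in the same order. Whether reads of mt-Co2 and mt-Co3 were lost in mapping or counting was not tested.

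Cox7a2l, a relative of the Cox7a couple whose product joins complex IV to complex III in respiratory supercomplexes, fell. It had 167, 191, 168 and 179 CPM in high glucose and 318, 448, 323 and 319 CPM in low glucose, with all high glucose libraries below all low glucose libraries. Its log2 fold change was -0.997 ± 0.12 (SE; edgeR adjusted p = 0.000203). Cox7a2 and Cox7a1 were 58.4% and 58.1% identical to it in aligned coding bases, with no identical stretch above 11 bases. C57BL/6 mice are known to carry a shortened allele of this gene.

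Ndufa4, whose product is now counted as a subunit of complex IV, had 110 ± 12.2 CPM in high glucose and 79.7 ± 19.0 CPM in low glucose (SD, n = 4 each). It rose by a log2 fold change of 0.46 ± 0.15 (SE; edgeR adjusted p = 0.0449). Its paralog Ndufa4l2, known as a hypoxia-induced gene, rose, with 3.10 ± 0.737 CPM in high glucose and 1.56 ± 0.219 CPM in low glucose (log2 fold change 0.99 ± 0.24, edgeR adjusted p = 0.0111). Among assembly genes Cmc2 rose (log2 fold change 0.52, edgeR adjusted p = 0.0148), as did Cox16 (0.40, edgeR adjusted p = 0.0461). Coa7 fell by 0.56 and Lrpprc, which stabilises mitochondrial messenger RNAs, by 0.57 on the log2 scale (edgeR adjusted p = 0.000979 and 0.00028). Ndufa4 and Cox16 lost their calls when any 1 library other than low glucose library 2 was left out, with adjusted p up to 0.119 and 0.125 over the alternatives, and Cox16 also lost it with library size alone and with no filter. Cycs, which encodes the cytochrome c that the enzyme oxidises, rose, with 82.2 ± 4.07 CPM in high glucose and 47.6 ± 7.83 CPM in low glucose (log2 fold change 0.79 ± 0.11, edgeR adjusted p = 0.000428).

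**Figure D4:**
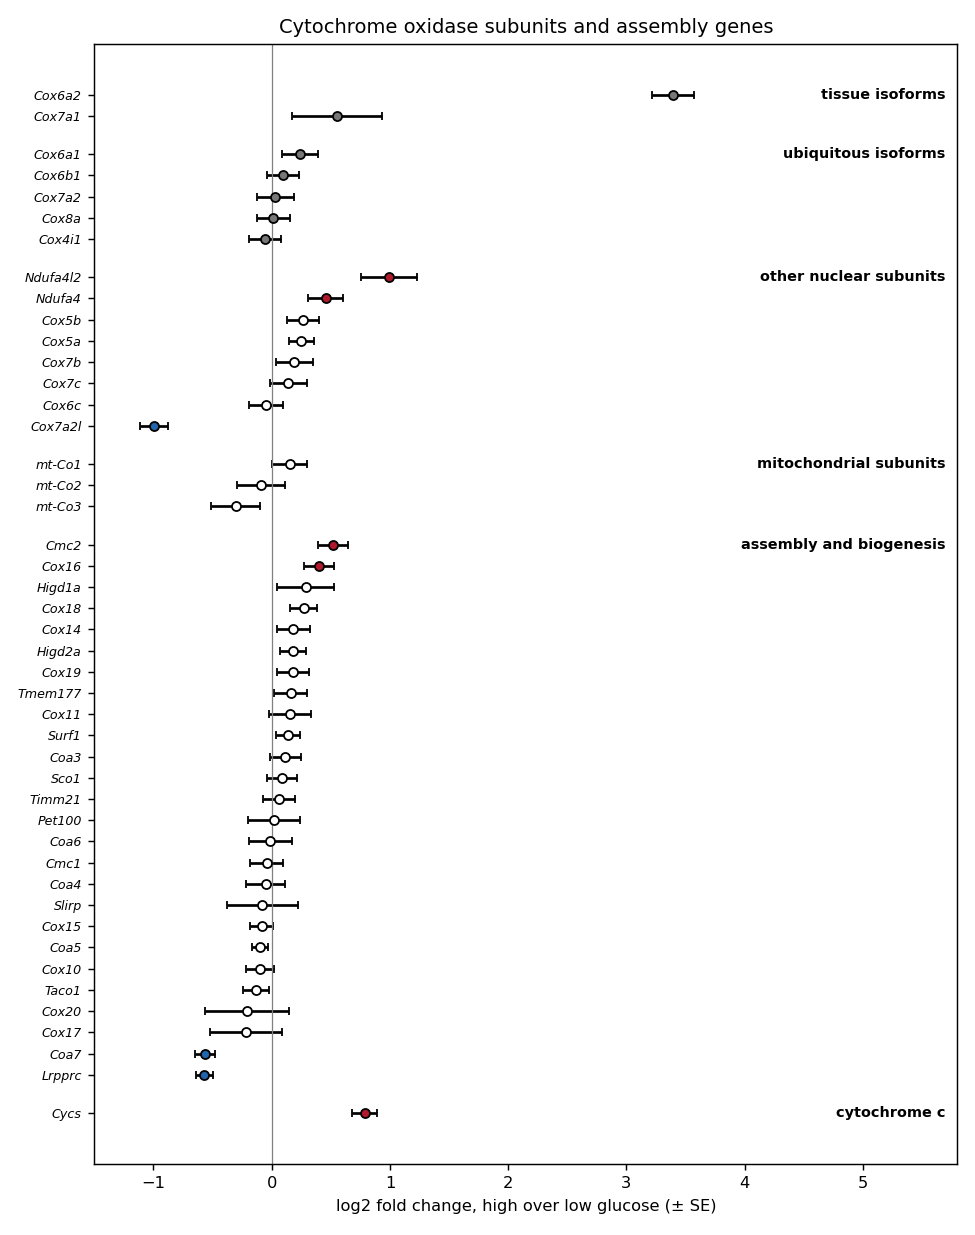
Log2 fold change, high over low glucose, ± SE of the tested isoforms, the other subunits, the assembly genes and cytochrome c, sorted within each group. Grey points are the paired isoforms, shown with no call. For the other genes, filled points were called by edgeR, red for higher and blue for lower. Cox6a2 stands at 3.40 and every other gene shown between -0.997 and 0.99.

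Of 18 listed regulators of oxidase isoforms or of respiratory genes, 15 were tested with edgeR, of which 0 rose and 3 (20.0%) fell, beside 13.1% and 11.9% of all genes: Nrf1 (log2 fold change -0.44, adjusted p = 0.00527), Lonp1 (-0.33, adjusted p = 0.0154) and Esrrg (-0.55, adjusted p = 0.0245). Hif1a, which encodes a subunit of a hypoxia-inducible transcription factor, had a log2 fold change of -0.07 ± 0.07 (SE; edgeR adjusted p = 0.490), and its protein level was not measured. Lonp1, whose protease is known to degrade the Cox4i1 product in hypoxia, had an adjusted p of 0.0514 without low glucose library 4.

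Other cell types in the islets were read from markers with the most abundant 2 of each list named. Fibroblast markers, led by Col1a1 and Col3a1, summed to 122 to 1088 CPM in high glucose and 93.2 to 280 CPM in low glucose, and acinar markers, led by Ctrb1 and Prss2, to 3196 to 17008 CPM in high glucose and 1130 to 9739 CPM in low glucose. Endothelial markers, led by Esam and Kdr, summed to 30.4 to 38.5 CPM in high glucose and 35.1 to 44.7 CPM in low glucose. Ductal markers, led by Krt7 and Spp1, summed to 555 to 578 CPM in high glucose and 408 to 525 CPM in low glucose, which did not overlap. Of these, Spp1 rose, with 235 to 250 CPM in high glucose and 107 to 224 CPM in low glucose (log2 fold change 0.66, edgeR adjusted p = 0.0407). The other 5 ductal markers overlapped between the groups and were not called, among them Krt7 with a log2 fold change of -0.04. The summed endocrine lists, led by Ins2 and Ins1, Gcg and Ttr, Sst and Rbp4, and Ppy and Pyy, overlapped between the groups. Of their 19 tested genes, 5 were called by edgeR without overlap, 10.5% higher and 15.8% lower, beside 13.1% and 11.9% of all genes. Among all tested genes, CPM of the groups did not overlap for 27.3%. Iapp (log2 fold change 0.70) and Ttr (0.73) rose, and Slc2a2 (-0.52), Mafa (-0.47) and Ucn3 (-0.79) fell. Apart from Ttr, Eno3 and Spp1, the called markers named here were chosen after their values were seen, as were Actn3 and Notch3. The part of these cell types in the difference of Cox6a2 was not tested.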

How the data were processed

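Per the file headers, the authors deposited 1 table with the read count per gene and library, a normalized signal (the count over a size factor of the library), an FPKM (the count over gene length and a total of the library), and the log2 fold change and p-value of their own comparison. Per the labels' protocols, RNA was taken with an RNeasy micro kit and libraries with an NEBNext Ultra kit. STAR 2.5, HTSeq 2 and DESeq2 are named with mm10 (GRCm38), per the submitters' processing notes. What strand setting and annotation release were used, and how multi-mapping reads were handled, is not given in the sources used here.

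The test on counts was that of edgeR 4.0.16 (R 4.3.3): TMM scaling, filterByExpr (minimum count 10, minimum total 15), a quasi-likelihood model of glucose over 8 libraries, and Benjamini-Hochberg adjustment over 15442 genes at 0.05, which called 3854. CPM are counts over the TMM-scaled library size, fold changes are high over low glucose, and the SE is the log2 fold change over the square root of F. The pipeline was tested on simulated data. Any 2 libraries differed far beyond sampling noise in a chi-square test of their counts.

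The members and lists were chosen with earlier results of these data known. Named were all members, genes overlapping them, up to 4 called genes of smallest adjusted p per list of oxidase, cytochrome c or regulator genes, the 2 most abundant markers per cell type list, and the 5 genes most like Cox6a2. Libraries numbered 2, 3 and 4 deviated from their group means together with the same number of the other group (r of 0.404 to 0.475). Number 1 had an r of 0.101, within the range of -0.367 to 0.207 for different numbers. The number was therefore used as a block in an alternative only. Alternatives were DESeq2 1.42.0, limma-voom (limma 3.58.1), other scalings, no filter, the block and each library left out. Sequences were taken from GENCODE M21 and RefSeq GRCm38.p6, and aligned with Biopython 1.88.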

Additional observations from a re-analysis of the deposited data

Results flagged for a closer look

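Of 64 groups of 4 libraries examined, 7 held a library far from the other 3 by Dixon's criterion. Chance gives this in about 1 of 20 groups of independent, normally spread values. These groups share libraries and genes that vary together, so the 7 cannot be weighed against that rate. Cox7a2 was high in library 2 of both groups, at 79.8 CPM in high glucose and 95.0 CPM in low glucose. Among the other subunit and assembly genes, Ndufa4 was high in high glucose library 2, at 128 CPM, and Cox7a2l and Cox16 in low glucose library 2, at 448 CPM and 16.9 CPM. Cox8b was detected in high glucose library 3 alone of its group, at 0.0943 CPM or 0.0853% of its couple, which rests on 2 counts. It was flagged both by CPM and by share from these same counts, and with the rest of the group at 0 the criterion is always met. Both libraries numbered 2 also stood apart on the second principal component. The part of these libraries in the results was examined by leaving them out.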

How the results depend on the processing

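All 7 tested isoforms had log2 fold changes that moved by less than 1 SD of the libraries in each of 15 alternatives, and Cox6a2 was called in each, at 3.25 to 3.51 when 1 library was left out. With library size alone as scaling, Cox7a2 and Cox8a, not called, turned to -0.04 and -0.06, and 37.8% of called genes were higher, against 52.5% with TMM. Leaving out 1 library also changed signs. The log2 fold change then ran from -0.134 to 0.112 for Cox4i1 and from -0.004 to 0.233 for Cox6b1. It ran from -0.061 to 0.237 for Cox7a2 and from -0.097 to 0.154 for Cox8a. With the replicate block, 2862 genes were lower and 2917 higher, 2 isoforms were higher and 8 other subunit and assembly genes rose. The block changed no other call among the isoforms. Without both libraries numbered 2, a setting chosen after seeing the data, 3 isoforms and 11 other subunit and assembly genes were higher. In that setting 5033 of all genes were called and 2563 were higher, against 3854 and 2023 in the main fit.

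With 1 library left out, 3015 to 5132 genes were called, 1617 to 2656 higher and 1382 to 2476 lower. The isoforms called higher were 1 to 2 and those lower 0 to 0. Of other subunit and assembly genes, 2 to 13 rose and 3 to 3 fell, with 13 without low glucose library 2 and 2 without any other. Without low glucose library 2, 2656 of all genes were higher. The difference in the share of Cox6a2 was 24.4 to 28.1 points. The cause of these changes was not tested. Esrrg lost its call in 4 alternatives, each with 1 library left out, with adjusted p up to 0.070 (edgeR). Depth limits Cox4i2, Cox6b2, Cox7a1 and Cox8b, whose libraries held at most 32 counts each.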
